A study of Mus musculus with 8 samples.

Results

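The genes described here had high messenger RNA levels on both arrays taken 1 h after stimulation of the T cell receptor (TCR) and lower levels on the untreated arrays and on both arrays taken at 6 h. They were chosen by their values. For each gene name the lower of the levels at 1 h was set against the highest of the untreated mean, the TCR 6 h level and the IFNβ plus TCR 6 h level, a lower 1 h level of at least 300 was required, and the 100 highest log2 differences, called scores here, were kept. They came from 28095 gene names with a probe, of which 10948 passed this floor and lay outside the families left out. Those were the 47 names starting with Egr, Nr4a, Fos, Jun, Dusp or Nfkb. By construction every member was higher at 1 h than in untreated cells and at 6 h, so these differences are descriptions and were not tested.

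The cells were CD8+ T cells from the spleens of C57BL6 OT-I mice, whose transgenic TCR recognises the ovalbumin peptide SIINFEKL on H-2Kb, and every group carried the transgene. Purity was 90 to 97% by flow cytometry, per the labels. The 7 groups were cells given interferon beta (IFNβ) for 1 h and then TCR stimulation with peptide-loaded H-2Kb streptamers for 1 h, cells given TCR stimulation alone for 1 h, cells given IFNβ for 1 h and then TCR stimulation for 6 h, cells given TCR stimulation alone for 6 h, cells given IFNβ alone for 2 h, cells given IFNβ alone for 7 h, and untreated cells. Each treated group had 1 single-colour Agilent oligonucleotide array, and untreated cells had 2 arrays, counted as 1 sample because they differed by about the noise between repeated spots. No untreated culture of matched length was among the samples, so an effect of IFNβ and one of time in culture cannot be told apart. The same holds for TCR stimulation wherever TCR arrays are compared with untreated cells.

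Immediate early genes are transcribed within minutes of a receptor signal by factors already present in the cell, and many of their messages are short-lived. In T cells the TCR reaches them through ERK, calcium and NF-κB signalling, and their products include transcription factors, proteins that destroy cytokine messages, and inhibitors of the same pathways. Type I interferon acts through JAK kinases and STAT proteins, and SOCS1 and IRF1 are among the proteins it induces.

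Levels are linear array signals, scaled by the authors so that each array's 75th percentile is 1500, with a floor of 15. Levels of different genes come from different probes and were not compared. The number of arrays limits the precision. The 1 h TCR arrays shared a slide with IFNβ 2 h and 1 untreated array, and the 6 h TCR arrays shared another with IFNβ 7 h and the other untreated array. Between the untreated arrays the members differed by a median of 0.06 and at most 0.45 in log2 size (S100a5). The scanner file of each 1 h TCR array held the values that the value table gives for the other one, and the table's assignment was used. Membership treats this pair alike, but each difference between these arrays changes sign with the other assignment. With the table's assignment the 30 antiviral interferon-stimulated genes had a median log2 difference of 5.52 between IFNβ plus TCR 1 h and TCR 1 h, in the direction of the table's labels. All 7 CD8 T cell markers were well above background in untreated cells, with a summed level of 342708 with IFNβ plus TCR 6 h and 322306 with TCR 6 h, against 617317 and 617695 in untreated cells. The 6 NK cell markers summed to 45364 with IFNβ plus TCR 1 h and 33010 with TCR 1 h, against 18460 and 17972 in untreated cells. The 4 CD4 T cell markers summed to 326 with IFNβ plus TCR 1 h and 842 with TCR 1 h, against 344 and 272 in untreated cells. On the TCR 1 h array 0 of these NK cell markers and 1 of these CD4 T cell markers were at least 2-fold above the untreated mean, and 0 were at least 2-fold below it. Their part in the members' levels was not tested. No marker of any cell type on the lists was a member. In bulk RNA, fewer cells of a type and less RNA per cell cannot be told apart.

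Of the 100 members 74 were matched to a gene of the reference table, 71 of them protein-coding and 3 long non-coding. The 29 members with only a clone, accession or provisional name are counted and not named. One row that the files list under a provisional name is Dusp8, a MAP kinase phosphatase gene that the rule would have left out under its current symbol. Scores ran from 3.96 (15.6-fold) through a median of 1.36 (2.57-fold) to 0.97 (1.96-fold). The highest, that of Pnma1, is set against an untreated mean in which 1 of the arrays was not well above background, so its size is uncertain. The level that limited the score was the untreated mean for 52 members, TCR 6 h for 23 and IFNβ plus TCR 6 h for 25. All 100 were well above background on both 1 h arrays and 94 on all 8 arrays.

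The 200 bases before the annotated start are shown for 9 members whose motifs are counted in the next paragraph, taken 5′ to 3′ on the gene's strand from RefSeq's promoter table on GRCm38.p6. In the first set capitals mark a CArG box, which serum response factor binds, with a GAS element (a STAT site) in Zfp36 and a κB site in Mideas. These are Zfp36 (chr7:28379229-28379428, minus strand), Filip1l (chr16:57549042-57549241, plus strand) and Mideas (chr12:84194016-84194215, minus strand).
Zfp36: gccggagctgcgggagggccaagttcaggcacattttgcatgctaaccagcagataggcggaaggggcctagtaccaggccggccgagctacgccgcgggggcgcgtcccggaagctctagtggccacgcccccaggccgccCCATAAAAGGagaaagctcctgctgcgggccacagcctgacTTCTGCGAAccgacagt
Filip1l: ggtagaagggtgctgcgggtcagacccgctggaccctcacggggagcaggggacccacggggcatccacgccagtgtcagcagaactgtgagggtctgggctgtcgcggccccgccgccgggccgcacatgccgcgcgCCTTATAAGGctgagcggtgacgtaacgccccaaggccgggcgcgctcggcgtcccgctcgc
Mideas: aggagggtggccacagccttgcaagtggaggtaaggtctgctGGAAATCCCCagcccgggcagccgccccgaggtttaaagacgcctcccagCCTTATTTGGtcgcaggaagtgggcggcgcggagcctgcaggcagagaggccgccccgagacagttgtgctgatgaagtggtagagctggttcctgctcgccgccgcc
In the next set capitals mark cAMP response elements, with a TATA box in Areg. These are Areg (chr5:91139399-91139598, plus strand), Btg2 (chr1:134079156-134079355, minus strand) and Dusp8 (chr7:142095285-142095484, minus strand).
Areg: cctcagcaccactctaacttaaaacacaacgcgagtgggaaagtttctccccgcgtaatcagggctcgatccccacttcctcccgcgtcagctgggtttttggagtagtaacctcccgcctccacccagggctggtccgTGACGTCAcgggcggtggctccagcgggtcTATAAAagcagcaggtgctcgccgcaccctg
Btg2: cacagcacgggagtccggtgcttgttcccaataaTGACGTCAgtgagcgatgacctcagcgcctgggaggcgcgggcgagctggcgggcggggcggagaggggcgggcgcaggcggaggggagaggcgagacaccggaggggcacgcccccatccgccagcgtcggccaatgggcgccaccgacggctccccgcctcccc
Dusp8: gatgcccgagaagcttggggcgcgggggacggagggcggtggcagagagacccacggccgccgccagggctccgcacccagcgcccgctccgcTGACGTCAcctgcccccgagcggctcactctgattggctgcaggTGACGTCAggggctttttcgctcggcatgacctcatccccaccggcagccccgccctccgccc
In the last set capitals mark 2 EGR sites and a κB site in Nab1 (chr1:52500449-52500648, minus strand), a GAS element and a κB site in Irf1 (chr11:53769814-53770013, plus strand), and 2 overlapping interferon-stimulated response elements in Socs1 (chr16:10785537-10785736, minus strand), the promoters of a corepressor of EGR proteins and of 2 members whose levels with IFNβ alone are described further on.
Nab1: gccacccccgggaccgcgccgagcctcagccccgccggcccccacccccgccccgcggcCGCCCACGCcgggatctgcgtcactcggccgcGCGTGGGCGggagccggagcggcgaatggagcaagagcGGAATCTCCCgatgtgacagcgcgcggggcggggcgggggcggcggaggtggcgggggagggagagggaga
Irf1: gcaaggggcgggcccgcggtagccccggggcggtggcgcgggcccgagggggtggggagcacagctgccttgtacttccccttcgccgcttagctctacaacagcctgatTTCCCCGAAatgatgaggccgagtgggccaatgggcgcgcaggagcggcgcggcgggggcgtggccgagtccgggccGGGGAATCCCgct
Socs1: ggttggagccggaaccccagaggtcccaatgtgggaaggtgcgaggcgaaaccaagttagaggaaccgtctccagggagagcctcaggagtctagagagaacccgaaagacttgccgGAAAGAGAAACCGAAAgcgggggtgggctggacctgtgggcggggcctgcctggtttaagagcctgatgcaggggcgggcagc

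Promoter windows of 300 bases, 78 in all, were found for 56 members and searched on both strands. The CArG box of Zfp36 began 58 bases before the start and that of Filip1l 62 bases before it. This box was in 8.97% of the members' windows (Fhl2, Filip1l, Gpr183, Mideas, Prkab2 and Zfp36), against 1.44% of the 15379 windows of all tested genes and 1.63% of all 32851 windows. The cAMP response element (TGACGTCA) was in 6.41% of the members' windows (Areg, Arl5b, Btg2, Dcun1d3 and Dusp8), against 2.71% and 1.79% of those of tested genes and of all windows. In the same order the shares were 12.8% against 10.0% and 8.46% for the κB site, 7.69% against 3.96% and 5.2% for the AP-1 site (TGACTCA or TGAGTCA), and 10.3% against 7.24% and 8.3% for the GAS element (TTCNNNGAA). They were 3.85% against 3.19% and 3.44% for the interferon-stimulated response element, 1.28% against 1.05% and 0.612% for the EGR site (GCGTGGGCG) and 20.5% against 21.1% and 23.4% for the NFAT core (GGAAAA). For the TATA box (TATAAA) they were 14.1% against 9.42% and 13.6%, and for the E-box (CACGTG) 5.13% against 9.11% and 7.15%. The CArG box and the cAMP response element thus had the widest gaps relative to both backgrounds, on 7 and 5 of the members' 78 windows. In the 40 windows of the families left out by name they were in 10.0% and 7.5%, so these shares were not particular to the members. The κB site was in 32.5% of those 40 windows. Windows of 1 gene can share letters, some motifs can overlap, and the median GC content was 62.2% in the members' windows, 59.3% for tested genes and 52.7% for all windows. A match is a string of letters, and binding was not measured.

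**Figure D1:**
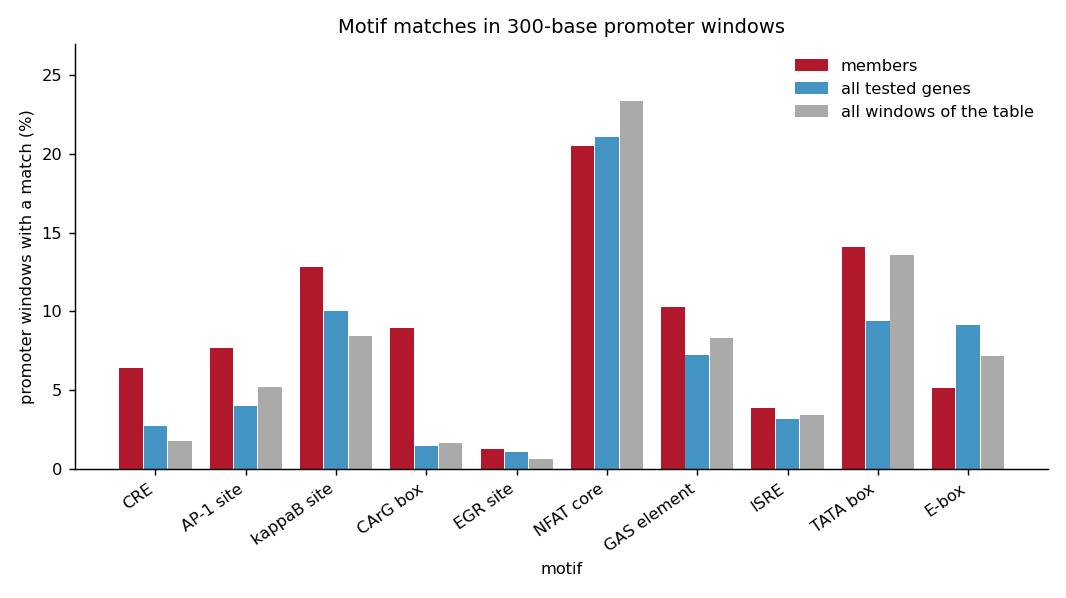
Share of 300-base promoter windows (y axis, percent) that hold each motif (x axis; CRE is the cAMP response element and ISRE the interferon-stimulated response element) for the members, all tested genes and all windows of the table. The CArG box was in 8.97% of the members' windows against 1.44% for tested genes, and the bars for the NFAT core lie close together.

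The 6 h levels differed among the members. Both 6 h TCR arrays were within 2-fold of the untreated mean for 56 members (52.7% of the 19640 genes tested), at least 2-fold below it for 13 (18.6%) and at least 2-fold above it for 9 (17.5%), and 22 fell between these classes. The rule capped the 6 h levels, so nothing is read from these counts. The 4 named members lowest at 6 h were Crybg1, Ptgir, Syne2 and Apobec2. Crybg1, a gene of the beta/gamma crystallin domain family, had 1340 with IFNβ plus TCR 6 h and 948 with TCR 6 h, against 13923 and 14177 in untreated cells. Ptgir, the prostacyclin receptor, had 31.2 with IFNβ plus TCR 6 h and 24.2 with TCR 6 h, against 250 and 272 in untreated cells. Apobec2, of the APOBEC deaminase family, had 65.4 with IFNβ plus TCR 6 h and 37.8 with TCR 6 h, against 477 and 451 in untreated cells. On these probes both 6 h arrays lay below both untreated arrays, with TCR 6 h not well above background for Ptgir. The other Ptgir probe, well above background on all 8 arrays, had 187 with IFNβ plus TCR 6 h and 206 with TCR 6 h, against 154 and 184 in untreated cells, and so no fall. The NK cell markers summed to 65978 with IFNβ plus TCR 6 h and 60961 with TCR 6 h, against 18460 and 17972 in untreated cells. The B cell markers summed to 5335 with IFNβ plus TCR 6 h and 4566 with TCR 6 h, against 13364 and 13022 in untreated cells. In the same order the class II presenting cell markers summed to 15924 and 13113, against 25280 and 24944. Myeloid sums were also lower at 6 h, erythroid and platelet sums higher, and CD4 T cell sums changed little. The part of these and of the lower CD8 marker levels at 6 h in the members' levels was not tested. The 4 highest at 6 h were Plk3, Csrnp1, Map3k8 and Spin2c, the last a gene of the spindlin family with 726 with IFNβ plus TCR 6 h and 614 with TCR 6 h, against 148 and 143 in untreated cells.

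**Figure D2:**
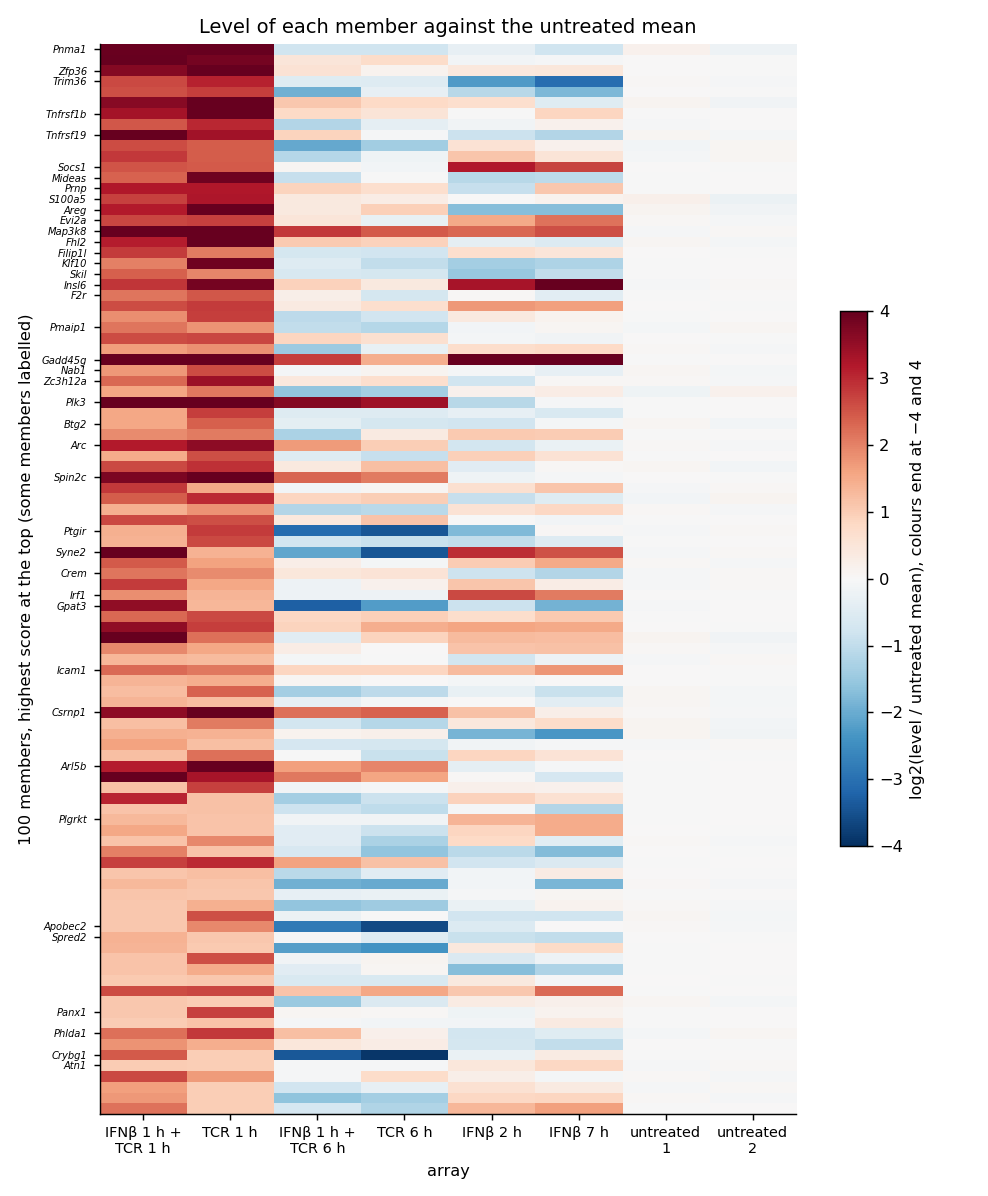
Levels of the 100 members (rows, highest score at the top) on the 8 arrays (columns), coloured by log2 of the level over the untreated mean. Both 1 h columns are red throughout, as the rule requires, the 6 h columns run from blue (Crybg1, Ptgir, Apobec2) to red (Plk3, Map3k8), and the IFNβ-only columns are red for Gadd45g, Socs1, Insl6, Irf1 and Syne2.

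Regulators of mRNA decay contributed Zfp36, Zc3h12a and Btg2, 3 of the 25 genes with a probe on that list. Zfp36 encodes tristetraprolin, which binds AU-rich elements of cytokine messages and speeds their decay. It had levels of 62813 with IFNβ plus TCR 1 h and 80994 with TCR 1 h, against 5003 and 4902 in untreated cells. Its other levels were 7394 with IFNβ plus TCR 6 h and 5444 with TCR 6 h, and 6576 with IFNβ alone for 2 h and 6813 with IFNβ alone for 7 h. The 1 h arrays thus stood well apart from the other 6. Another Zfp36 probe, not used by the rule, had 4463 with IFNβ plus TCR 1 h and 5907 with TCR 1 h, against 313 and 351 in untreated cells. Btg2, an antiproliferative adaptor of the deadenylase complex, had 107699 with IFNβ plus TCR 1 h and 193458 with TCR 1 h, against 39554 and 34787 in untreated cells, and 28649 with IFNβ plus TCR 6 h and 22607 with TCR 6 h. Zc3h12a, the endoribonuclease Regnase-1, had 2124 with IFNβ plus TCR 1 h and 4567 with TCR 1 h, against 441 and 420 in untreated cells, and 575 with IFNβ plus TCR 6 h and 689 with TCR 6 h. Both genes were highest on the 1 h arrays, and higher with TCR alone than with IFNβ plus TCR.

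Of the 22 other genes of this list, 6 rose and 0 fell in the TCR 1 h term of an additive linear model (limma, with further terms for TCR 6 h and IFNβ), in which 2.71% of 19305 genes rose and 1.85% fell. Their median log2 term was 0.37, against -0.05 over all genes. In this model a TCR term is set against the untreated and the IFNβ-only arrays together. Its size can thus differ from the difference to untreated cells. Tob2, an adaptor related to Btg2, rose by 3.02 ± 0.35 (adjusted p = 0.015) in log2 with its SE from limma, and Zfp36l1, a paralogue of Zfp36, by 2.63 ± 0.34 (adjusted p = 0.018). Between 6 h and 1 h the limma differences of Tob2 and Zfp36l1, -1.01 ± 0.38 (adjusted p = 0.089) and -0.90 ± 0.37 (adjusted p = 0.11), missed the threshold. Of the 22 other genes 3 rose and 5 fell between 6 h and 1 h, beside 16.8% and 16.0% of all genes.

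Transcription regulators of the immediate early list gave 7 members of 48 genes with a probe, namely Klf10, Skil, Nab1, Crem, Irf1, Csrnp1 and Ier2. Klf10, a zinc finger repressor induced by TGF-β, had 5918 with IFNβ plus TCR 1 h and 21941 with TCR 1 h, against 1453 and 1491 in untreated cells. At 6 h it was below untreated cells, at 1028 with IFNβ plus TCR 6 h and 746 with TCR 6 h. Skil, the SMAD corepressor SnoN, had 33015 with IFNβ plus TCR 1 h and 24229 with TCR 1 h, against 6193 and 6349 in untreated cells, and 3981 with IFNβ plus TCR 6 h and 3817 with TCR 6 h. Nab1, the corepressor of EGR proteins whose promoter holds the 2 EGR sites shown, had 21851 with IFNβ plus TCR 1 h and 39912 with TCR 1 h, against 6947 and 6225 in untreated cells. Its 6 h levels, 6243 with IFNβ plus TCR 6 h and 7042 with TCR 6 h, were close to those of untreated cells. Crem, which encodes activators and repressors at cAMP response elements, had 76596 with IFNβ plus TCR 1 h and 64573 with TCR 1 h, against 16815 and 17678 in untreated cells. Csrnp1, a nuclear protein of the immediate early class, had 83569 with IFNβ plus TCR 1 h and 123806 with TCR 1 h, against 7179 and 6766 in untreated cells. Unlike Klf10 and Skil, Csrnp1 was still above both untreated arrays at 6 h, at 32105 with IFNβ plus TCR 6 h and 35897 with TCR 6 h.

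The 41 other genes of this list had a median TCR 1 h term of 1.34, and 14 rose and 0 fell, beside 2.71% and 1.85% of all genes. Between 6 h and 1 h 3 rose and 11 fell, beside 16.8% and 16.0% of all genes. The list's members, which the rule chose as lower at 6 h, are not in these counts. Atf3, a stress-induced bZIP factor, rose by 6.82 ± 0.44 (adjusted p = 0.0034) at TCR 1 h in log2 with limma and differed by -0.14 ± 0.48 (adjusted p = 0.84) between 6 h and 1 h. Maff, a small MAF factor, rose by 4.23 ± 0.28 (adjusted p = 0.0035) with limma and was lower at 6 h than at 1 h, with a difference of -1.71 ± 0.30 (adjusted p = 0.0081).

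Kinases and feedback inhibitors gave 4 members of 37 genes with a probe, Socs1, Map3k8, Plk3 and Spred2. Plk3, a stress-responsive polo-like kinase, had 20941 with IFNβ plus TCR 1 h and 38483 with TCR 1 h, against 537 and 551 in untreated cells. It was still at 6984 with IFNβ plus TCR 6 h and 5664 with TCR 6 h, and at 254 with IFNβ alone for 2 h and 531 with IFNβ alone for 7 h. Map3k8, the kinase TPL2 upstream of ERK, had 5765 with IFNβ plus TCR 1 h and 6440 with TCR 1 h, against 181 and 193 in untreated cells, and 1332 with IFNβ plus TCR 6 h and 1029 with TCR 6 h. Both kinases lay above every untreated array at 6 h, so that they were transient only in the sense of the rule. Spred2, an inhibitor of the step from RAS to ERK, had 3233 with IFNβ plus TCR 1 h and 2595 with TCR 1 h, against 1249 and 1225 in untreated cells, and 1205 with IFNβ plus TCR 6 h and 871 with TCR 6 h. Of the 33 other genes 11 rose and 0 fell at TCR 1 h, beside 2.71% and 1.85% of all genes. Between 6 h and 1 h 6 rose and 7 fell, beside 16.8% and 16.0% of all genes. The list's members, which the rule chose as lower at 6 h, are not in these counts. Spry4, which also inhibits the step from RAS to ERK, rose by 4.64 ± 0.27 (adjusted p = 0.0032) in log2 with limma at TCR 1 h. Its difference between 6 h and 1 h was 0.87 ± 0.29 (adjusted p = 0.065).

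Among ligands, Areg was the sole member of 37 cytokine, chemokine and growth factor genes with a probe. It encodes amphiregulin, a ligand of the EGF receptor, and had 441 with IFNβ plus TCR 1 h and 1627 with TCR 1 h, against 53.1 and 44.3 in untreated cells. At 6 h it had 64.1 with IFNβ plus TCR 6 h and 94.2 with TCR 6 h. On both IFNβ-only arrays it was at the floor and not well above background, and the 1 h mean was at least 51.0-fold higher. Of the 31 other genes of the list in the model 11 rose and 0 fell at TCR 1 h, beside 2.71% and 1.85% of all genes. Between 6 h and 1 h 8 rose and 2 fell, beside 16.8% and 16.0% of all genes. Receptor genes among the members include Tnfrsf1b, Tnfrsf19, F2r and Ptgir. Tnfrsf1b, the TNF receptor TNFR2, had 13356 with IFNβ plus TCR 1 h and 23645 with TCR 1 h, against 1334 and 1341 in untreated cells. Another Tnfrsf1b probe differed little between 1 h and 6 h, with 1058 with IFNβ plus TCR 1 h and 882 with TCR 1 h, and 859 with IFNβ plus TCR 6 h and 871 with TCR 6 h, against 525 and 518 in untreated cells, so the probes of this gene disagree. Tnfrsf19, the receptor TROY, had 3495 with IFNβ plus TCR 1 h and 1331 with TCR 1 h, against 137 and 123 in untreated cells. F2r, the thrombin receptor PAR1, had 46770 with IFNβ plus TCR 1 h and 58534 with TCR 1 h, against 10457 and 10540 in untreated cells, and 12269 with IFNβ plus TCR 6 h and 6423 with TCR 6 h. Icam1, the ligand of the integrin LFA-1, was the sole member of 25 NF-κB pathway genes and had 29267 with IFNβ plus TCR 1 h and 26194 with TCR 1 h, against 6089 and 5972 in untreated cells, and 10870 with IFNβ plus TCR 6 h and 10945 with TCR 6 h. None of the 37 activation and adhesion receptors with a probe was a member, while 12 of 36 rose and 1 fell at TCR 1 h, beside 2.71% and 1.85% of all genes.

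Genes of cell death and growth arrest gave 3 members of 29 with a probe, Pmaip1, Gadd45g and Phlda1. Pmaip1, the BH3-only protein NOXA, had 11846 with IFNβ plus TCR 1 h and 9290 with TCR 1 h, against 2532 and 2792 in untreated cells, and 1351 with IFNβ plus TCR 6 h and 1205 with TCR 6 h. Phlda1, a pleckstrin homology domain protein, had 2323 with IFNβ plus TCR 1 h and 3571 with TCR 1 h, against 478 and 532 in untreated cells, and 1155 with IFNβ plus TCR 6 h and 580 with TCR 6 h. Pmaip1 was below both untreated arrays at 6 h and Phlda1 above both. Arc and Arl5b were the 2 members of 28 GTPase and G protein signalling genes. Arc, known in neurons as an activity-dependent synaptic protein, had 1582 with IFNβ plus TCR 1 h and 2090 with TCR 1 h, against 181 and 168 in untreated cells, and 566 with IFNβ plus TCR 6 h and 345 with TCR 6 h. Arl5b, an ARF-like GTPase, had 37803 with IFNβ plus TCR 1 h and 113062 with TCR 1 h, against 4188 and 4364 in untreated cells, and 13292 with IFNβ plus TCR 6 h and 16436 with TCR 6 h.

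Members outside the lists include the highest score of all. Pnma1, a gene of the paraneoplastic antigen family, had 406 with IFNβ plus TCR 1 h and 419 with TCR 1 h, against 29.4 and 22.7 in untreated cells. It was not well above background on 1 untreated array, either 6 h array or either IFNβ-only array, and its 1 h mean was at least 26.0-fold higher than at 6 h and at least 22.2-fold higher than with IFNβ alone. Mideas, a subunit of a histone deacetylase complex, is its neighbour on chromosome 12 with no protein-coding gene between them, and had 2724 with IFNβ plus TCR 1 h and 7950 with TCR 1 h, against 531 and 533 in untreated cells. Nsun6 and Arl5b on chromosome 2 also have no protein-coding gene between them. Phlda1 and Glipr1, Insl6 and Plgrkt, and Gstm3 and Gstm1 each have 1. Gstm1 and Gstm3 are paralogues, and whether their probes bind both messages was not tested. Trim36, a ubiquitin ligase of the tripartite motif family, had 1487 with IFNβ plus TCR 1 h and 1993 with TCR 1 h, against 245 and 227 in untreated cells. Prnp, the prion protein, had 3474 with IFNβ plus TCR 1 h and 3489 with TCR 1 h, against 373 and 379 in untreated cells. Fhl2, a LIM domain coregulator with a CArG box in its promoter window, had 1844 with IFNβ plus TCR 1 h and 4445 with TCR 1 h, against 221 and 197 in untreated cells. Trim36 was below both untreated arrays at 6 h, at 170 with IFNβ plus TCR 6 h and 166 with TCR 6 h, whereas Prnp and Fhl2 were above them. Filip1l, related to a filamin-binding protein, had 14353 with IFNβ plus TCR 1 h and 8692 with TCR 1 h, against 2065 and 2053 in untreated cells. S100a5, a calcium-binding protein of the S100 family, had 308 with IFNβ plus TCR 1 h and 438 with TCR 1 h, against 53.7 and 39.4 in untreated cells. Evi2a had 30545 with IFNβ plus TCR 1 h and 31845 with TCR 1 h, against 5006 and 4650 in untreated cells.

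Other probes of the members gave values that the rule did not use. There were 66 such probes for 37 members, and 49 of them, for 31 members, were well above background on both 1 h arrays. Of these, 41 had a score above 0 and 8 a score below 0, with a median of 0.97, and 45 had both 1 h levels above the untreated mean. Among the members described by level, Ptgir and Csrnp1 had a probe with a score below 0, and the other Tnfrsf1b probe was at 0.02. The array also has a row named Dusp8, left out by name, with 638 with IFNβ plus TCR 1 h and 1841 with TCR 1 h, against 190 and 209 in untreated cells, beside 747 with IFNβ plus TCR 1 h and 1755 with TCR 1 h, against 281 and 287 in untreated cells for the member row. At 6 h the left-out row had 20.0 with IFNβ plus TCR 6 h and 35.8 with TCR 6 h, and the member row 169 with IFNβ plus TCR 6 h and 154 with TCR 6 h. Both rows were thus raised at 1 h and below untreated cells at 6 h.

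Just inside the limit of the rule were Atn1 and Eldr at a score of 0.98 and 3 genes not named here. Just outside were Klf4 and Ier3 at 0.97, Pmepa1 and Serpini1 at 0.96 and 1 unnamed gene. Atn1, a nuclear corepressor, had 3714 with IFNβ plus TCR 1 h and 3597 with TCR 1 h, against 1771 and 1881 in untreated cells, and Klf4, a zinc finger factor, had 1752 with IFNβ plus TCR 1 h and 1713 with TCR 1 h, against 891 and 860 in untreated cells.

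**Figure D3:**
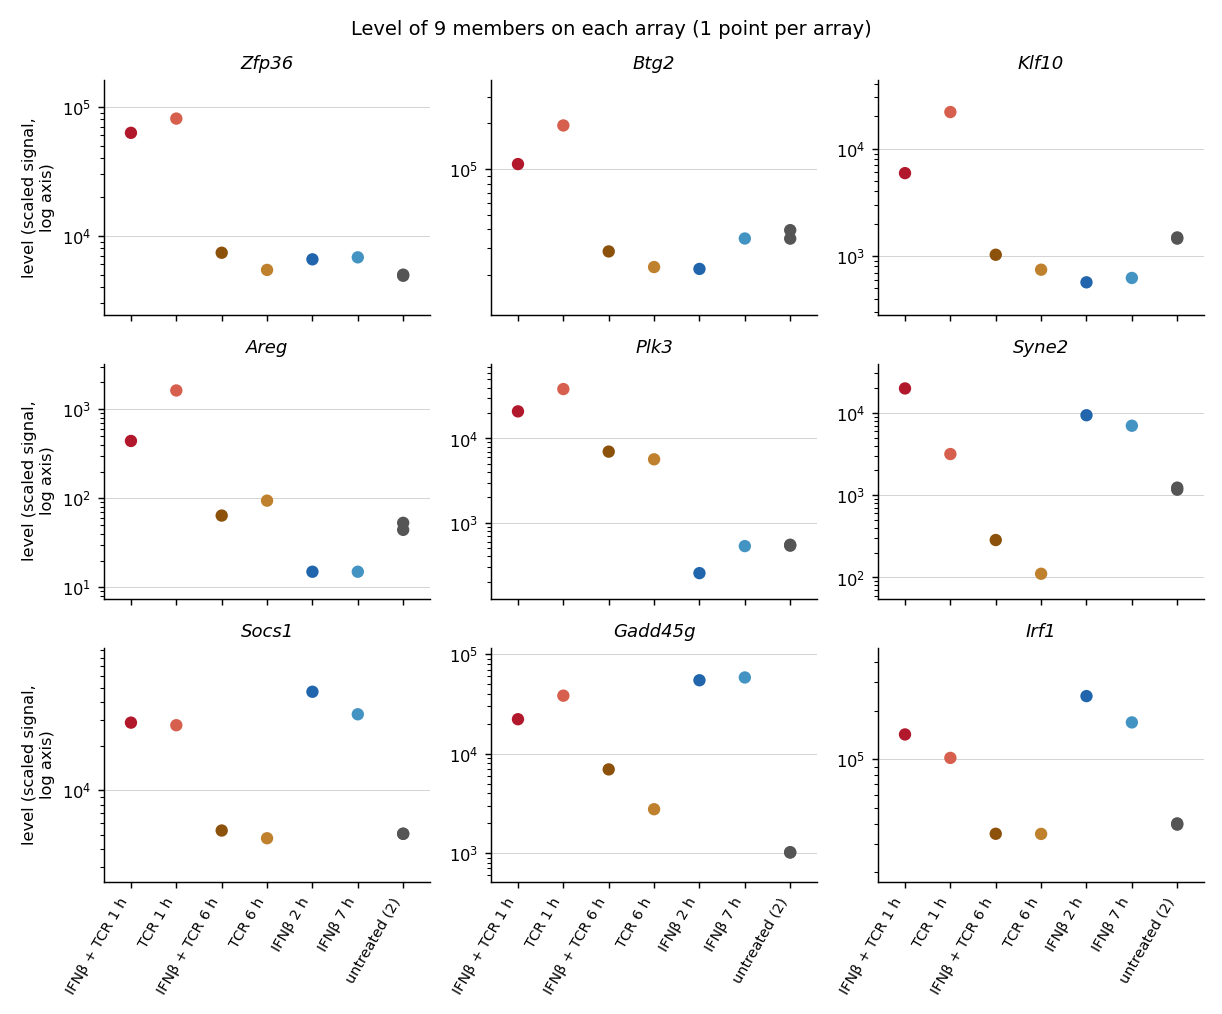
Levels of 9 members (y axis, scaled signal, log axis) with 1 point per array, for IFNβ plus TCR 1 h, TCR 1 h, IFNβ plus TCR 6 h, TCR 6 h, IFNβ 2 h, IFNβ 7 h and the 2 untreated arrays. In Zfp36, Btg2, Klf10, Areg and Plk3 the 1 h arrays are highest, in Socs1, Gadd45g and Irf1 the IFNβ-only arrays are higher than both, and in Syne2 they lie between the 1 h arrays.

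IFNβ alone was no part of the rule, and its arrays separate the members. In 8 members at least 1 IFNβ-only array was at or above the lower 1 h level, and in 7 of them both were, so that the description of high at 1 h of TCR only does not hold for these. Among all genes tested the share with such an array was 75.4%. The rule set the members' 1 h levels above the untreated and 6 h levels, which all genes need not have. The lower share among members is thus partly built in, and nothing is read from it. Of these 8, Socs1, Gadd45g, Irf1, Insl6, Syne2 and Plgrkt, in each of which both were, are named here. In the other 92 both IFNβ-only arrays were below both 1 h arrays.

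Gadd45g, a growth arrest protein that activates the kinase MEKK4, had 54914 with IFNβ alone for 2 h and 58586 with IFNβ alone for 7 h, against 1012 and 1021 in untreated cells, which is 54.0-fold and 57.6-fold higher. At 1 h of TCR it had 22256 with IFNβ plus TCR 1 h and 38411 with TCR 1 h, so both IFNβ-only arrays were above both 1 h arrays. Socs1, an inhibitor of JAK kinases, had 46944 with IFNβ alone for 2 h and 32983 with IFNβ alone for 7 h, against 5077 and 5056 in untreated cells. Its levels at 1 h of TCR were 28931 with IFNβ plus TCR 1 h and 27784 with TCR 1 h. Irf1, a transcription factor of the interferon response, had 246774 with IFNβ alone for 2 h and 169539 with IFNβ alone for 7 h, against 40092 and 39376 in untreated cells. Another Irf1 probe had 15914 with IFNβ alone for 2 h and 9584 with IFNβ alone for 7 h, against 1960 and 1999 in untreated cells. The same order was seen on both Irf1 probes, with IFNβ alone above 142752 with IFNβ plus TCR 1 h and 102122 with TCR 1 h on the brighter one. Insl6, a peptide of the relaxin family, had 6400 with IFNβ alone for 2 h and 11639 with IFNβ alone for 7 h, against 627 and 664 in untreated cells. Plgrkt, a plasminogen receptor gene with 1 gene between it and Insl6, had 47560 with IFNβ alone for 2 h and 51074 with IFNβ alone for 7 h, against 18290 and 18390 in untreated cells.

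On the IFNβ 2 h array 20 members were at least 2-fold higher than the untreated mean (9.39% of all genes) and 12 at least 2-fold lower (5.02%), a split that was 14 and 17 with scaling to the array median and 15 and 4 after normexp background correction and quantile normalization. On the IFNβ 7 h array 21 were higher (9.68%) and 13 lower (6.89%), against 17 and 18 with the array median and 15 and 8 after normexp. On both arrays 17 members were higher (5.26%) and 8 lower (3.45%). These differences share the untreated mean with the rule. Nothing is therefore read from the members' counts and medians beside those of all genes. The members' median log2 difference was -0.02 at 2 h and 0.07 at 7 h, beside 0.04 and 0.10 for all genes. The 4 named members lowest at 2 h were Trim36, Areg, Ptgir and Skil. Trim36 had 49.0 with IFNβ alone for 2 h and 28.6 with IFNβ alone for 7 h, against 245 and 227 in untreated cells. Skil had 2189 with IFNβ alone for 2 h and 3159 with IFNβ alone for 7 h, against 6193 and 6349 in untreated cells. Ptgir had 76.4 with IFNβ alone for 2 h and 269 with IFNβ alone for 7 h, against 250 and 272 in untreated cells. Trim36 and Skil were low on both arrays, Trim36 not well above background at 7 h. The other Ptgir probe was not low, with 173 with IFNβ alone for 2 h and 241 with IFNβ alone for 7 h, against 154 and 184 in untreated cells. The summed level of the 7 B cell markers was 41311 with IFNβ alone for 2 h and 35370 with IFNβ alone for 7 h, against 13364 and 13022 in untreated cells. For the 7 markers of class II presenting cells it was 55202 with IFNβ alone for 2 h and 34748 with IFNβ alone for 7 h, against 25280 and 24944 in untreated cells. Erythroid markers, 4 in number, summed to 12644 with IFNβ alone for 2 h and 11460 with IFNβ alone for 7 h, against 3812 and 3793 in untreated cells. All 3 sums were higher with IFNβ alone, and no marker of these lists was at the floor on every array. The CD8 T cell sum was also higher, at 838253 with IFNβ alone for 2 h and 861962 with IFNβ alone for 7 h, against 617317 and 617695 in untreated cells. CD4 T cell sums were slightly higher. NK cell sums were lower, at 17511 and 14469 against 18460 and 17972, as were platelet sums. Myeloid sums were higher at 2 h and lower at 7 h. The part of all these sums in the members' differences was not tested.

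**Figure D4:**
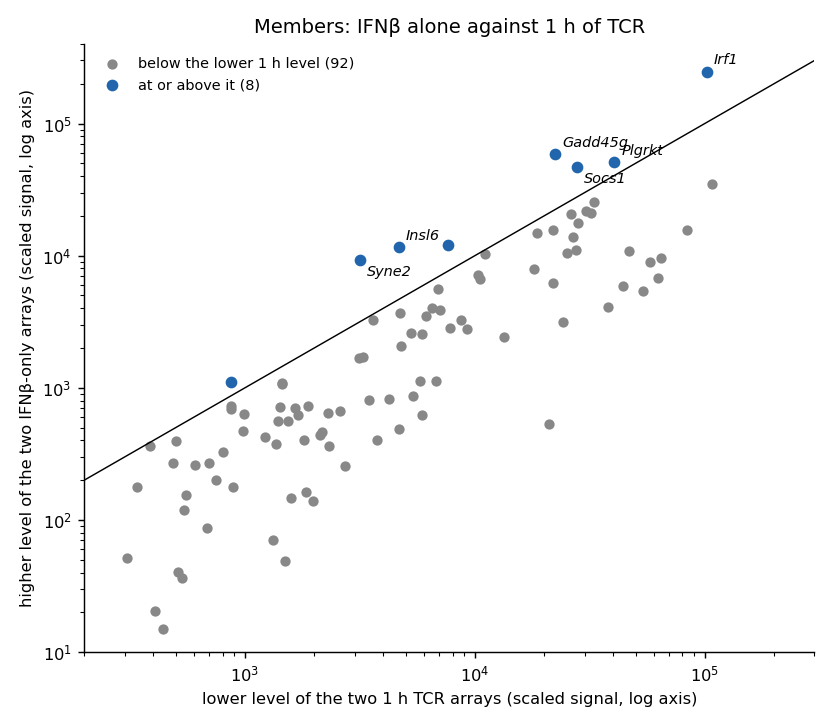
Higher level of the IFNβ-only arrays (y axis) against the lower level of the 1 h TCR arrays (x axis) for each of the 100 members, both as scaled signal on log axes, with the line of equal levels. The 8 members on or above the line include Irf1, Gadd45g, Socs1, Plgrkt, Insl6 and Syne2, and 92 lie below it.

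In the additive model 0 of the 100 members were called for IFNβ by limma, while 13 of 19305 genes were (0.0673%). This model and the one with interactions also used the 1 h, 6 h and untreated arrays on which the members were chosen. The counts of members in both models are therefore not independent of the rule. At an unadjusted p under 0.05, 6 members were higher and 6 lower, beside 8.65% of all genes. Syne2, which encodes the nuclear envelope protein nesprin-2, came nearest at 2.30 ± 0.32 (adjusted p = 0.1) in log2 with its SE from limma. Mideas followed at -1.17 ± 0.21 (adjusted p = 0.2) and Areg at -1.88 ± 0.42 (adjusted p = 0.31), the last from signals not well above background on the IFNβ-only arrays and so with no exact size. Syne2 and Mideas were called with the untreated arrays as separate samples, and Syne2 and Areg without the IFNβ plus TCR 6 h array or without the TCR 6 h array. The 30 antiviral interferon-stimulated genes, none a member, had a median IFNβ term of 4.48 with 4 called.

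A model with interactions gives IFNβ without TCR its own term, which was examined after the data were seen. With 1 residual degree of freedom it called 0 of 19305 genes with limma (0%) and so 0 members, beside 2493 genes (12.9%), 19 members higher and 12 members lower at an unadjusted p under 0.05. The term was 5.80 ± 0.30 (adjusted p = 0.084) for Gadd45g, 3.74 ± 0.48 (adjusted p = 0.16) for Insl6 and 2.96 ± 0.37 (adjusted p = 0.16) for Socs1. It was 2.44 ± 0.33 (adjusted p = 0.16) for Map3k8. With the untreated arrays as separate samples 27 members were called, 17 higher and 10 lower, beside 10.7% of all genes, with slide as a block 22 (7.69%), with the filter on all 8 arrays 6 (1.72%) and after normexp and quantile normalization 1 (0.451%).

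IFNβ before the TCR was compared with TCR alone on 1 array each, with no replicate. The rule used all of these 1 h and 6 h arrays, so nothing is read from the counts of members below. At 1 h, levels with IFNβ plus TCR were at least 2-fold higher than with TCR alone for 9 members (9.53% of all genes) and at least 2-fold lower for 16 (5.09%). With the scanner files' assignment these were 16 and 9, an assignment under which the antiviral genes named above would be lower with IFNβ. The median log2 difference was -0.11, against -0.09 for all genes. Among named members Syne2 was furthest up, with 19756 with IFNβ plus TCR 1 h and 3155 with TCR 1 h, against 1165 and 1234 in untreated cells. Another Syne2 probe had 2412 with IFNβ plus TCR 1 h and 396 with TCR 1 h. It was the only one of the 6 other Syne2 probes that was well above background on both 1 h arrays. The rest were at the floor of 15 on both. Gpat3, an enzyme of glycerolipid synthesis, had 2538 with IFNβ plus TCR 1 h and 545 with TCR 1 h, against 211 and 220 in untreated cells. Crybg1 had 77274 with IFNβ plus TCR 1 h and 28075 with TCR 1 h, against 13923 and 14177 in untreated cells. In these 3 genes and Tnfrsf19 the array with IFNβ was the higher one. Klf10, Areg, Panx1 and Arl5b were furthest in the other direction. Panx1, a channel that releases ATP, had 26779 with IFNβ plus TCR 1 h and 83848 with TCR 1 h, against 12572 and 12596 in untreated cells. At 6 h 2 members were at least 2-fold higher with IFNβ (1.58%) and 5 lower (2.59%).

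The interactions of IFNβ with TCR called 0 of 19305 genes at 1 h and at 6 h with limma (0% each), hence 0 members. At an unadjusted p under 0.05 there were 1461 genes (7.57%) at 1 h, 6 members higher and 12 lower among them, and 1568 (8.12%) at 6 h, with 8 members higher and 12 lower. Gadd45g had -6.59 ± 0.46 (adjusted p = 0.57) at 1 h and -4.47 ± 0.46 (adjusted p = 0.49) at 6 h in log2 with limma. Insl6 had -4.72 ± 0.73 (adjusted p = 0.57) at 1 h, and Socs1 -2.90 ± 0.57 (adjusted p = 0.57). In these 3 the estimates were negative and the adjusted p did not pass. The interactions rest in part on arrays that the rule used, so nothing is read from these counts of members.

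The 6 families left out by name could be tested on the TCR terms, since their names and not their values kept them out. The members were chosen with earlier results of these data known, so the choice of families may not be independent of the values. Of 41 tested genes 20 rose and 1 fell at TCR 1 h, beside 2.71% and 1.85% of all genes. With the scanner files' assignment of the 1 h pair 14 rose, where 391 of 19305 genes were called in either direction. Without the IFNβ plus TCR 1 h array 9 rose, where 0.480% of all genes were called in either direction, and without the TCR 1 h array 6, where 0.207% were. Between 6 h and 1 h 3 rose and 16 fell, beside 16.8% and 16.0%, which became 5 and 12 with scaling to the array median (35.6% of all genes in either direction) and 3 and 8 with slide as a block (14.9%). Without the TCR 1 h array 7 fell (20.0% of all genes in either direction), without the IFNβ plus TCR 1 h array 10 (2898 of 19360 genes) and without the TCR 6 h array 8 (23.0%). With the scanner files' assignment of the 1 h pair 11 fell between 6 h and 1 h, where 5386 of 19305 genes were called in either direction. Of the 47 names 12 had scores at or above the lowest member: Egr3, Fos, Egr1, Fosl2, Dusp8, Nfkbiz, Fosb, Egr4, Egr2, Nr4a3, Nfkbid and Nfkbie.

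All 4 Egr genes, which encode zinc finger activators, rose at 1 h and were lower at 6 h than at 1 h. Egr3 had 133659 with IFNβ plus TCR 1 h and 154355 with TCR 1 h, against 1326 and 1298 in untreated cells, and 7704 with IFNβ plus TCR 6 h and 4095 with TCR 6 h. Its TCR 1 h term was 7.14 ± 0.44 (adjusted p = 0.0032) in log2 with limma, and its difference between 6 h and 1 h -4.68 ± 0.48 (adjusted p = 0.002). Egr4 was not well above background on the untreated or IFNβ-only arrays, and its 1 h mean was at least 268-fold higher than in untreated cells. Of the 3 Nr4a orphan receptor genes all rose at 1 h and Nr4a3 was lower at 6 h than at 1 h, with a limma difference of -2.93 ± 0.64 (adjusted p = 0.017). Nr4a1, used as a reporter of TCR signal strength, had 437065 with IFNβ plus TCR 1 h and 607128 with TCR 1 h, against 20089 and 20258 in untreated cells. Its 6 h levels were 337188 with IFNβ plus TCR 6 h and 371632 with TCR 6 h, still far above untreated cells. All 4 Fos genes rose at 1 h, and Fos and Fosb were lower at 6 h than at 1 h.

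Of the Jun genes Junb rose at 1 h, by 2.53 ± 0.24 (adjusted p = 0.0085) with limma. Jund and Jun did not pass the test, at 0.84 ± 0.31 (adjusted p = 0.17) and -0.47 ± 0.66 (adjusted p = 0.73) with limma. Jun had 1351 with IFNβ plus TCR 1 h and 589 with TCR 1 h, against 374 and 363 in untreated cells. With IFNβ alone Jun had 3127 at 2 h and 2883 at 7 h. These arrays are part of the baseline of the term, so its sign is not that of the difference from untreated cells. Of 18 Dusp genes, which encode phosphatases of MAP kinases among others, 4 rose and Dusp7 fell. Dusp8 was at 3.58 ± 0.33 (adjusted p = 0.0084) in the TCR 1 h term and -1.76 ± 0.33 (adjusted p = 0.0059) in the TCR 6 h term with limma. Of 9 Nfkb names 4 rose, and the largest term was that of Nfkbid, an atypical IκB protein, at 5.49 ± 0.34 (adjusted p = 0.0032) with limma. Nfkb1, the p105 precursor of p50, was higher at 6 h than at 1 h, with a limma difference of 2.08 ± 0.31 (adjusted p = 0.0046).

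**Figure D5:**
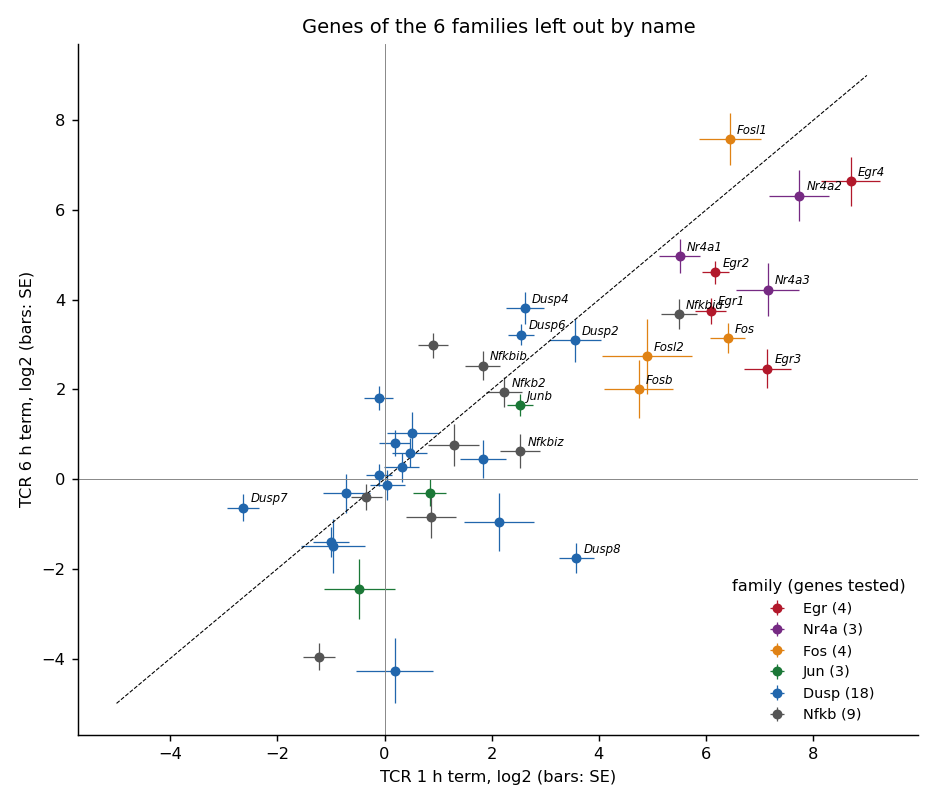
TCR 6 h term (y axis) against TCR 1 h term (x axis), in log2 from the additive limma model with SE bars, for the 41 tested genes of the 6 families, coloured by family and labelled where the TCR 1 h term passed the test. The Egr genes, Fos, Fosb and Fosl2 lie below the dashed line of equal terms, Fosl1, Dusp4 and Dusp6 lie above it, and Dusp8 is positive at 1 h and negative at 6 h.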

How the data were processed

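Gene expression was measured on 8 single-colour Agilent arrays of 45018 spots. The authors deposited a scanner file per array and a value table; per the file headers the intensity used was the processed signal, which is background-subtracted. Agilent Feature Extraction 9.5.3.1 is named in the submitters' processing notes. Every value-table column was, up to 1 scaling factor, the processed signal of a single array, with a floor of 15, and was used for membership and levels. Depth has no meaning here, and the number of arrays limits precision.

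The members and gene lists were chosen with earlier results of these data known. The processed signal was scaled to a 75th percentile of 1500 and log2 transformed, control spots were left out, and the brightest probe per gene name was kept where well above background on at least 2 arrays. The mean of the untreated arrays and 6 treated arrays, 7 samples, were fitted with limma 3.58.1 (R 4.3.3; lmFit and eBayes), with IFNβ, TCR 1 h and TCR 6 h as additive terms (3 residual degrees of freedom) or with interactions (1), and Benjamini-Hochberg adjustment over 19305 genes at a threshold of 0.05. The spread rests on arrays that share a treatment, and the labels do not say that arrays came from separate animals. The additive IFNβ term alone was tested on simulated data with independent samples, and the TCR terms and interactions were not simulated. Tables and plots used Python 3.11.15, pandas 2.3.3 and matplotlib 3.10.9.

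Members named were the 25 highest scores, the 4 highest in each list, the 4 largest rises and falls with IFNβ alone for 2 h, between the 1 h arrays and at 6 h, the 5 just inside and the 5 just outside, and the 3 largest TCR 1 h terms per left-out family. Irf1, Ier2, Plgrkt, the other neighbouring genes, genes listed for a motif, other genes of lists and other family genes were named after their values were seen, and a gene that this choice includes is not reported here. Alternatives covered the normalization, background correction, filter, probe choice, slide, untreated arrays, the assignment of the 1 h pair and leaving out each array.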

Additional observations from a re-analysis of the deposited data

How the results depend on the processing

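No paired analysis was possible because the groups share fewer than 2 replicate numbers, each treated group having 1 array. Members called for IFNβ numbered 0, with 2 when the untreated arrays were separate samples, 1 with scaling to the array median, 1 with the filter on all 8 arrays, 1 on slide 1 alone and 0 to 2 with 1 array left out. Both interactions called 0 members under every alternative that could be run; slide 1 or 2 alone and leaving out a treated array could not be fitted for them, nor the 1 h pair left out for terms that need it. Left-out family genes that rose at TCR 1 h numbered 20, and 6 to 21 with 1 array left out. Those lower at 6 h than at 1 h numbered 16, against 8 with slide as a block and 7 to 16 with 1 array left out. With the scanner files' assignment of the 1 h pair the counts of 20 and 16 became 14 and 11. Of the 100 members, 59 stayed with no floor, 66 with only names that match a reference symbol and 5 (without TCR 1 h) to 98 with 1 array left out, 43 without IFNβ plus TCR 1 h. With the IFNβ-only arrays among the levels to exceed 71 stayed, and with the scanner files' values 100. Scaling to the array median moved the median TCR 6 h term of all genes to 0.38, against 0.05. The alternatives for leaving out an array in the membership and for level counts were chosen after seeing the data, and the causes of these shifts were not tested.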
